A study of Mus musculus with 13 samples.

Results

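The apelin, sphingosine 1-phosphate (S1P) and adrenomedullin pathways were followed through 9 genes, which encode 2 ligands, 5 receptors and 2 co-receptors. The ligands were Apln (apelin) and Adm (adrenomedullin). The receptors were Aplnr (the apelin receptor), S1pr1, S1pr2 and S1pr3 (receptors of S1P) and Calcrl (the receptor that adrenomedullin binds), and Ramp2 and Ramp3 were the accessory proteins of CALCRL. Each gene was found by its symbol, and the 9 are among 45250 genes measured by RNAseq in 13 libraries. Levels are FPKM, that is fragments per kilobase of transcript scaled to the fragments of the library, so that the levels of different genes can be compared. 8 of the 9 reached 1 FPKM in 2 or more libraries and were tested, and Ramp3 did not. The Ramp2 row of the table also holds Vps25, an overlapping gene on the same strand that encodes a widely used endosomal sorting protein, so that every value given for Ramp2 is the sum of both genes.

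The libraries came from mouse embryonic stem (ES) cells differentiated in culture, to ask what the loss of the transcriptional regulators LMO2 and TAL1 does on the way from mesoderm to blood. Flk-1+ haemangioblasts, the common precursors of endothelium and blood, were isolated from embryoid bodies with an antibody against Flk-1, from WT, Lmo2-/- and Tal1-/- ES cells with 3 libraries each. Haemogenic endothelium 1 (HE1; Tie2+, Kit+, CD41-) was sorted after Flk-1+ cells had been cultured further, from WT and Lmo2-/- cells with 2 libraries each. HE1 of both genotypes had been grown with VEGF, IL-6 and D4T conditioned medium, so stage and culture medium cannot be told apart. Each genotype was 1 ES line (CCB for WT), so genotype and line cannot be told apart either, and the libraries replicate the differentiation of that line. The ES cells had been kept on mouse embryonic fibroblasts, and were passaged without these on gelatin before differentiation was started. Replicates carry the numbers 0 to 2 of the deposited table.

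Apelin and its receptor, a G protein-coupled receptor of mesoderm and vessel sprouts, guide the movement of early mesoderm and the growth of vessels. S1P is a lipid carried in blood. Its receptor S1PR1 couples to Gi and tightens endothelial junctions, whereas S1PR2 and S1PR3 also use other G proteins and can loosen them. CALCRL reaches the cell surface with a RAMP, and with RAMP2 or RAMP3 it binds adrenomedullin, a peptide needed for vessels to form properly.

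HE1 libraries of both genotypes held the transcripts that their sort selected for. Tek, which encodes Tie2, lay between 121 and 176 FPKM in HE1 and at 2.27 FPKM or below in Flk-1+ libraries, and Kit lay between 42.4 and 68.5 in HE1 against 10.7 or below. Kdr, which encodes Flk-1, was at 68.7 FPKM or above in every library. Itga2b, which encodes the CD41 that the sort selected against, was at 10.4 and 15.4 FPKM in WT HE1 and at 0 and 19.8 in Lmo2-/- HE1. In Flk-1+ libraries it lay between 0 and 5.54 FPKM, below the HE1 values other than 0. Of the targeted genes, Tal1 was at 2.74 to 3.41 FPKM in Tal1-/- Flk-1+ against 22.0 to 37.4 in WT Flk-1+. The other gene was low in Tal1-/- Flk-1+, where Lmo2 was at 0, 7.58 and 1.29 FPKM. In Lmo2-/- Flk-1+, Tal1 was at 6.51, 29.0 and 6.64 FPKM, so that replicate 1 lay within the WT range. The paper detected no LMO2 protein in Tal1-/- Flk-1+ cells. For Lmo2-/- Flk-1+ cells it reported less Tal1 mRNA by RNAseq, no significant change by qPCR, and less TAL1 protein. Lmo2 was at 21.6 to 30.8 FPKM in WT Flk-1+ against 2.17 to 6.48 in Lmo2-/- Flk-1+, but at 4.30 and 20.6 in WT HE1 against 6.42 and 0 in Lmo2-/- HE1, so that it does not separate the HE1 libraries. The genotypes of HE1 below are therefore those of the labels ("the libraries labelled"). Low values move in steps of 1 fragment, and a fragment was worth 3.76 times the median of the other libraries in Lmo2-/- HE1 replicate 1 against 0.596 to 1.57 times in the rest. That library is the shallowest, with 9694 genes above 0 against 11861 to 15641 elsewhere, and 191 of 4079 genes with a median above 10 FPKM were listed at 0 there, against 1 to 59. A gene at 0 is therefore given as listed at 0.

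Promoter sequences are shown for Calcrl, the member that differed most between the stages, and for S1pr2 and S1pr3, the S1P receptors whose FPKM lay higher in the libraries labelled Lmo2-/- HE1. Each runs 5′ to 3′ on the strand of the gene from 250 bases before the start site to 50 after it, from RefSeq on GRCm38.p6, at chr2:84425217-84425516 (minus strand), chr9:20976744-20977043 (minus strand) and chr13:51408368-51408667 (plus strand). Capitals mark E-boxes, a class of motif that includes the sites of TAL1 and its partners. Binding at them was not examined.
Calcrl: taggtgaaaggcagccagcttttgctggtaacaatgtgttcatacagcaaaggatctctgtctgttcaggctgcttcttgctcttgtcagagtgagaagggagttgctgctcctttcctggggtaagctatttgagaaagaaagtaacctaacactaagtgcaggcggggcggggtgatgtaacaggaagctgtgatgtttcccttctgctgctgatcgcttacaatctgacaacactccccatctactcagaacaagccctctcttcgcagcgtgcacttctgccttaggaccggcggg
S1pr2: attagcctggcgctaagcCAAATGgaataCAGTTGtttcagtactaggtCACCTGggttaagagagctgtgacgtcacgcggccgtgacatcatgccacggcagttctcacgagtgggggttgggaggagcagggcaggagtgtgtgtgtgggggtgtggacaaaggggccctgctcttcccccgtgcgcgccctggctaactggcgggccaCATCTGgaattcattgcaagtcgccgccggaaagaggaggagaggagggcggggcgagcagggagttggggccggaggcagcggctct
S1pr3: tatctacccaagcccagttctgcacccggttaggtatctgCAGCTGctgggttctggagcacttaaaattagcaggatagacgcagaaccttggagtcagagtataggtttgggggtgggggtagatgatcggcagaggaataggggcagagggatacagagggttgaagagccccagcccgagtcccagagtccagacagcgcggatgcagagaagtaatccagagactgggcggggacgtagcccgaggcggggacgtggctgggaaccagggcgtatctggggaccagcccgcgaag
Promoters of 6 of the 9 genes were found in the RefSeq table, those of Apln, S1pr2, S1pr3, Calcrl, Ramp3 and Adm. Both strands were searched for the E-box (CANNTG), a GATA motif (AGATAA), an ETS motif (GGAAGT) and a composite of part of an E-box and a GATA motif (CTG and GATA with 8 bases between them, which can overlap an E-box). S1pr2 held 4 E-boxes, at -232, -221, -201 and -38 from the start site, Apln held 3, S1pr3 held 1 at -210 and Ramp3 held 1. The share of all promoters with 3 or 4 E-boxes was not counted. Calcrl and Adm held no E-box, against 72.3% of 32851 promoters of the same length that held at least 1. The ETS motif was found in Ramp3 and Adm (23.8% of all promoters), and neither the GATA motif (11.2% of all) nor the composite (2.28% of all) was found in any of the 6. The 300 bases shown for Calcrl were 50.7% G or C, those of S1pr2 62% and those of S1pr3 59%.

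**Figure D1:**
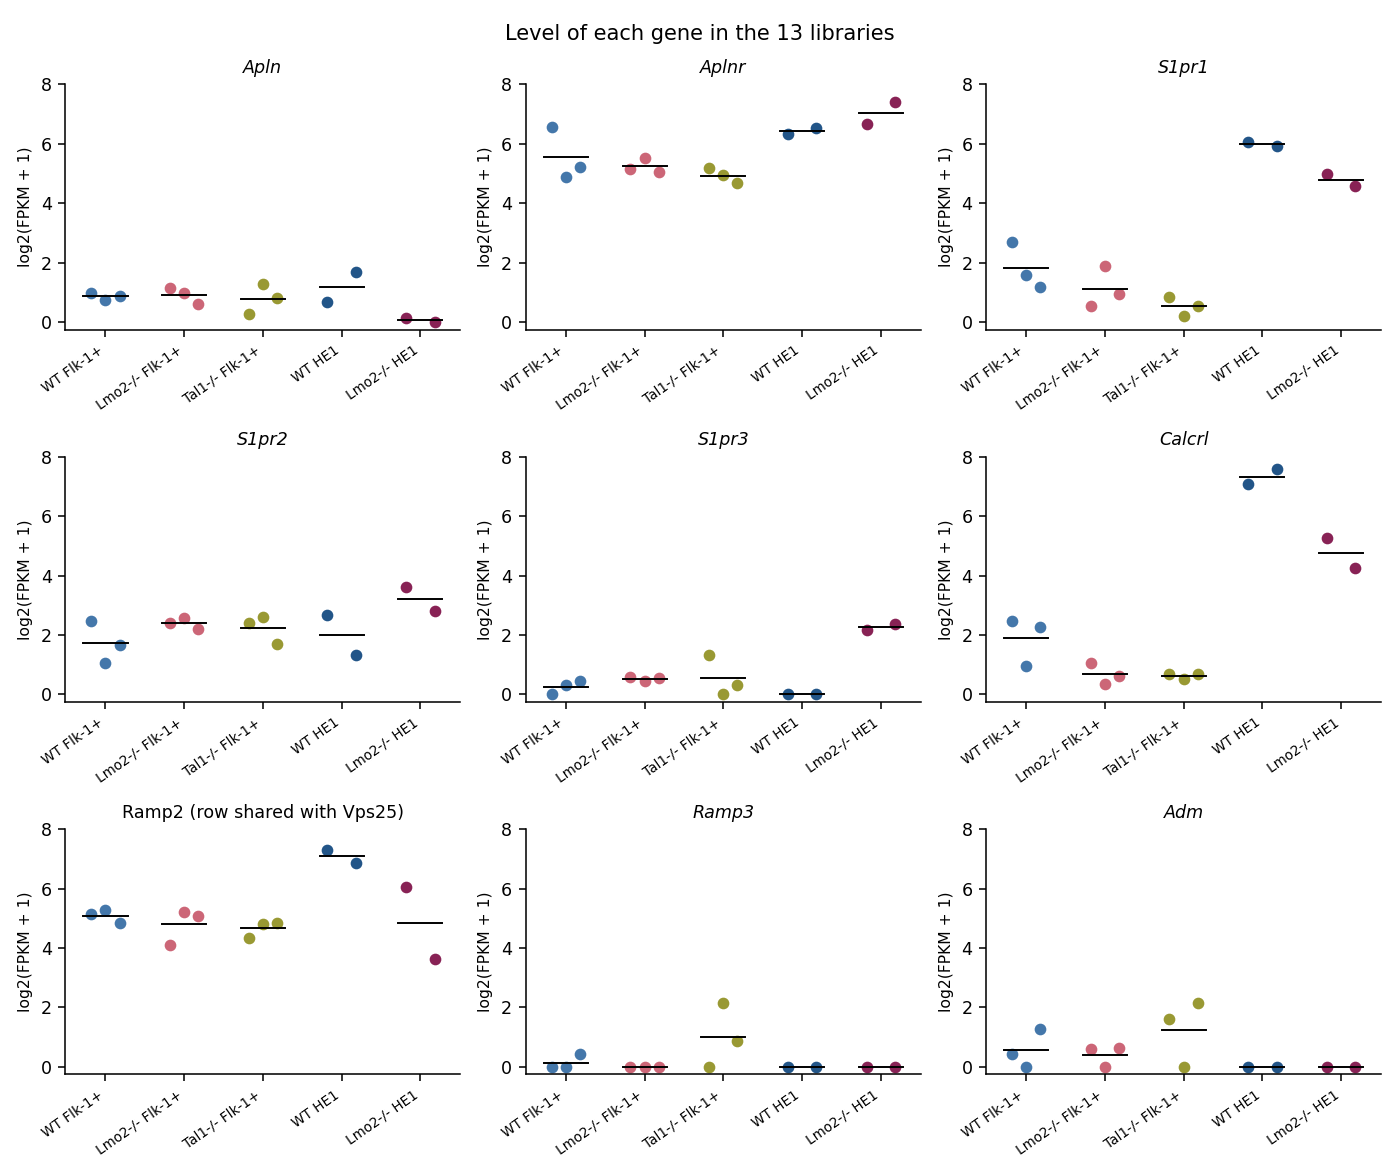
Level of each of the 9 genes as log2(FPKM + 1) (y axis) in the 13 libraries (points) of the 5 groups (x axis), with the mean of each group on that scale as a line. Calcrl and S1pr1 lie far higher in HE1 than in Flk-1+ cells, Aplnr is high throughout, and Ramp3 and Adm are at 0 in HE1.

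Calcrl, which encodes the receptor of adrenomedullin, was the member that differed most between the stages. Calcrl (chr2:84330626-84425411 in GRCm38, minus strand) was at 4.51, 0.941 and 3.80 FPKM in WT Flk-1+, 1.09, 0.280 and 0.535 in Lmo2-/- Flk-1+, and 0.616, 0.435 and 0.599 in Tal1-/- Flk-1+. It was at 133 and 193 FPKM in the libraries labelled WT HE1 and at 37.9 and 18.4 in those labelled Lmo2-/- HE1. Every HE1 library thus lay above every Flk-1+ library, and both WT HE1 libraries lay above both Lmo2-/- HE1 libraries. Among the genes tested, Calcrl stood between the 11.98 and 49.1 percentiles in the Flk-1+ libraries, at the 98.3 and 99.2 percentiles in the WT HE1 libraries and at the 88.3 and 65.3 percentiles in the Lmo2-/- HE1 libraries.

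Differences between groups were tested with limma on log2(FPKM + 1) over 13802 genes, and a gene was called at an adjusted p (Benjamini-Hochberg) below 0.05 with a mean above 10 FPKM in 1 of the groups compared. Differences are given on that log2 scale with their standard error (SE), and understate the change of low genes. HE1 was compared with Flk-1+ in WT first. 3 of the 8 members tested were called higher, Calcrl, S1pr1 and the Ramp2 row, and none lower, where 6.04% of all genes were called higher and 0.942% lower. The median difference of the 8 members was 0.59 against 0.11 for all genes. In Lmo2-/- cells 3 members, Calcrl, S1pr1 and Aplnr, were called higher and none lower in HE1, where 17.2% of all genes were called higher and 2.38% lower, and the medians were 1.28 and 0.30. All HE1 libraries lay above all Flk-1+ libraries for 3 members in WT (27.6% of all genes) and for 5 in Lmo2-/- (31.9%), and below them for none in WT (17.2%) and for Apln in Lmo2-/- (15.1%). The median of all genes depends on the scaling: with the libraries rescaled to a common median it was -0.24 in WT and -0.34 in Lmo2-/-, and of the calls over all genes 57.0% instead of 86.5% were higher in WT and 44.4% instead of 87.9% in Lmo2-/-.

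Calcrl rose by 5.44 (SE 0.53) between the stages in WT (limma, adjusted p = 5.02e-05) and by 4.10 (SE 0.53) in Lmo2-/- (limma, adjusted p = 0.000274), and relative to the median of all genes by 5.33 and 3.79. The mean FPKM was 53.0 times higher in HE1 than in Flk-1+ cells in WT and 44.2 times higher in Lmo2-/-, ratios that were 39.3 and 23.3 with the authors' pooled FPKM. The 2 rises were not shown to differ, with a genotype and stage interaction of -1.35 (SE 0.75, limma, adjusted p = 0.486). Permutation of 2 against 3 libraries cannot go below p = 0.2, which both comparisons reached (exact test, two-sided). In bulk samples, fewer cells of a type and less RNA per cell cannot be told apart. The summed level of 10 endothelial markers moved with Calcrl between the stages, from 16.5 to 82.4 FPKM in the Flk-1+ libraries to 651 to 979 in HE1, and 7 of the 9 tested were called higher in WT and 5 in Lmo2-/-. Their part in the rise was not tested.

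Between the HE1 groups, 1 of the 8 members was called, Calcrl, which was lower in the libraries labelled Lmo2-/-. Of all genes 0.855% were called lower and 2.15% higher, a split of higher calls of 71.6% that became 50.2% with rescaling to a common median. The median difference of the members was -0.56 against 0.15 for all genes. Calcrl fell by 2.56 (SE 0.58, limma, adjusted p = 0.0255), and its mean FPKM was 5.81 times higher in the libraries labelled WT, or 9.14 times with the authors' pooled FPKM. Exact permutation of 2 against 2 libraries gave p = 0.333, the smallest it can give. The call was lost without WT HE1 replicate 0 (limma, adjusted p = 0.0932), without WT HE1 replicate 1 (0.146) and without Lmo2-/- HE1 replicate 1, the shallow library (a difference of -2.06, limma, adjusted p = 0.152), whereas without Lmo2-/- HE1 replicate 0 the adjusted p was 0.00698. Over the other alternatives it ranged from 0.00259 to 0.343, and the call was also lost with a pseudocount of 0.1, with array weights and with the HE1 groups fitted alone. The difference lay between -3.06 and -2.06 in every one of these settings. The 10 endothelial markers summed to 914 and 979 FPKM in WT HE1 and to 651 and 976 in Lmo2-/- HE1, sums that overlap, and 0 of the 9 tested were called. The median difference of these 9 was nevertheless -0.93, against 0.15 for all genes. Emcn (endomucin) was at 7.84 and 8.02 FPKM in WT HE1 and listed at 0 in both Lmo2-/- HE1 libraries (limma, adjusted p = 0.00069), and was not called because it stayed under 10 FPKM. Esam differed by -2.14 (limma, adjusted p = 0.0825), Ecscr by -1.15 and Egfl7, whose row also holds other genes, by -1.02. Tie1 differed by -0.93, Flt1 by -0.51 and Cdh5 by -0.45. Eng and Pecam1 went the other way, by 0.78 and 0.42. The part of these genes in the difference in Calcrl was not tested.

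**Figure D2:**
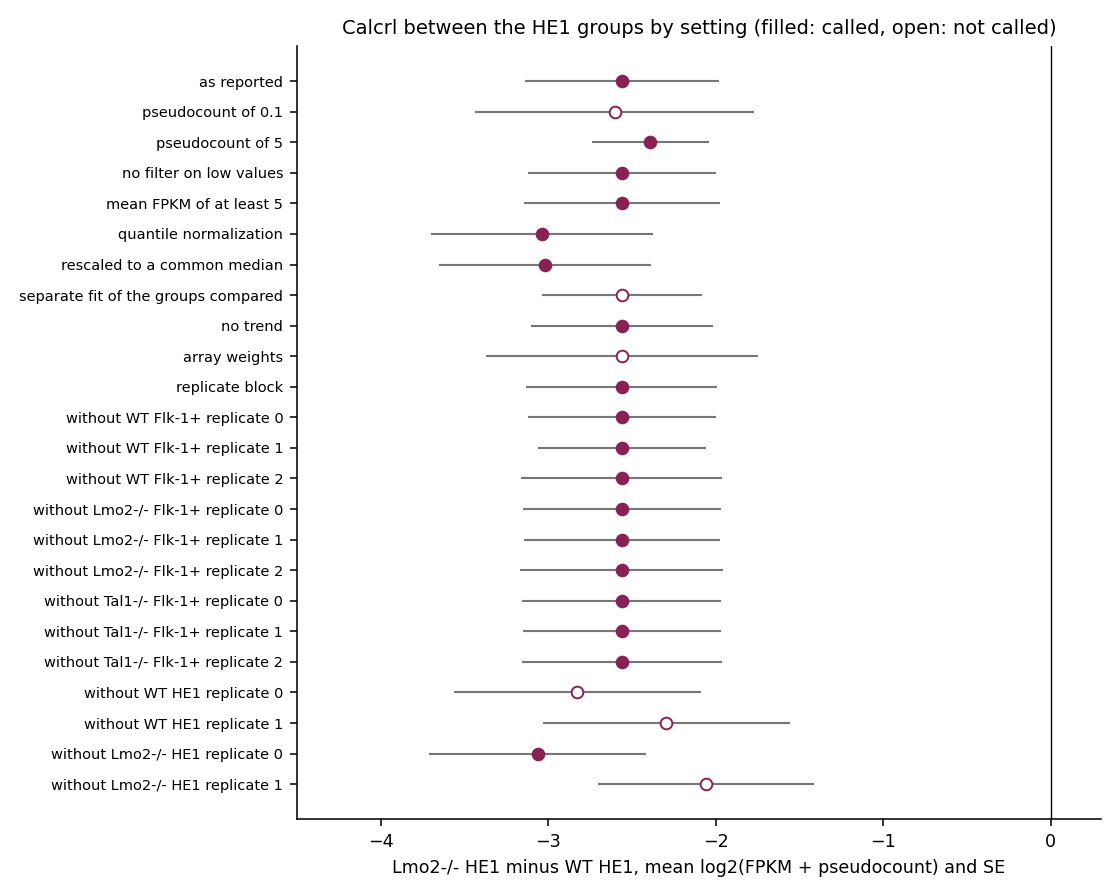
Difference in Calcrl between the libraries labelled Lmo2-/- HE1 and WT HE1 (x axis, mean log2(FPKM + pseudocount), bars give the standard error) as reported and under each alternative (y axis). Every point lies below 0, between -3.06 and -2.06, and the open points are those whose call was lost, among them the removal of either WT HE1 library.

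In Flk-1+ cells no member was called in any of the 3 comparisons, and of all genes 0% were called in either mutant against WT and 0.0145% between the mutants. Calcrl was lower by 1.21 (SE 0.47) in Lmo2-/- and by 1.26 (SE 0.47) in Tal1-/- against WT, differences that share the WT libraries and did not pass the adjustment (limma, adjusted p = 1 and 0.700). The WT values spread from 0.941 to 4.51 FPKM and overlapped those of Lmo2-/- but not those of Tal1-/-. All Tal1-/- libraries lay below all WT libraries for Calcrl and S1pr1, as for 7.4% of all genes. At an unadjusted p below 0.05, 1 member differed between Lmo2-/- and WT (Calcrl, with 2.22% of all genes), 2 between Tal1-/- and WT (Calcrl and S1pr1, with 6.11% of all genes) and none between the mutants (5.96%). The median difference of the members was -0.23, -0.25 and -0.13 in these comparisons, against -0.0087, -0.0088 and -0.0044 for all genes. Endothelial markers summed to 51.8 to 82.4 FPKM in WT, 48.9 to 65.7 in Lmo2-/- and 16.5 to 27.3 in Tal1-/- Flk-1+ cells. Egfl7 (means of 37.2, 31.1 and 5.63 FPKM), whose row also holds other genes, and Flt1 (18.5, 12.1 and 6.38) made up most of that sum. Eng (6.01, 9.11 and 6.55) was not lower in either mutant. The haematopoietic markers summed to 12.9 to 23.2 FPKM in WT, 5.06 to 7.99 in Lmo2-/- and 4.17 to 7.25 in Tal1-/-, and the fibroblast markers to 14.8 to 29.8, 36.2 to 54.9 and 33.1 to 48.7. Most of the fibroblast sum was Col1a1 (means of 7.70, 20.6 and 23.1 FPKM) and Fbln1 (15.1, 24.2 and 14.7). Lum was listed at 0 in all Flk-1+ libraries, and Dcn and Postn in all those of WT and Lmo2-/-. The part of these markers in the differences of Calcrl and S1pr1 was not tested.

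The co-receptors of CALCRL could be followed only in part, because Ramp2 shares its row with Vps25 and its own level is unknown. The Ramp2 row (chr11:101246028-101259549, plus strand, with Vps25) was at 34.6, 37.7 and 27.9 FPKM in WT Flk-1+, 16.4, 35.9 and 32.8 in Lmo2-/- Flk-1+, and 19.3, 27.2 and 28.02 in Tal1-/- Flk-1+. It was at 158 and 116 FPKM in WT HE1 and at 65.1 and 11.3 in Lmo2-/- HE1, where the library at 11.3 is the shallow one. Thus the WT HE1 libraries lay above all others, and the Lmo2-/- HE1 libraries fell on either side of the Flk-1+ range. The row rose by 2.002 (SE 0.57) from Flk-1+ to HE1 in WT (limma, adjusted p = 0.0413) and differed by 0.03 (SE 0.57) in Lmo2-/- (limma, adjusted p = 0.976), with an interaction of -1.97 (SE 0.80) that was not called (limma, adjusted p = 0.333). Between the HE1 groups it was lower by 2.26 (SE 0.62) in Lmo2-/- and not called (limma, adjusted p = 0.0573). The rise in WT lost its call without any 1 of the WT Flk-1+ or WT HE1 libraries (limma, adjusted p between 0.0693 and 0.260), without 5 of the 6 Flk-1+ libraries of the mutants (up to 0.0566), and under 5 of the 11 other alternatives, over which it ranged from 0.00341 to 0.169. Without Lmo2-/- HE1 replicate 0 the HE1 difference was -3.47 (limma, adjusted p = 0.000936) and the interaction -3.18 (limma, adjusted p = 0.00815), and without the shallow library they were -1.05 and -0.76 and not called. Ramp3 (chr11:6650148-6677475, plus strand) was listed at 0 in all 4 HE1 libraries and all 3 Lmo2-/- Flk-1+ libraries, and was above 0 only at 0.358 FPKM in WT Flk-1+ replicate 2 and at 3.44 and 0.847 FPKM in 2 of the 3 Tal1-/- Flk-1+ libraries. A pseudogene on the opposite strand overlaps it.

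**Figure D3:**
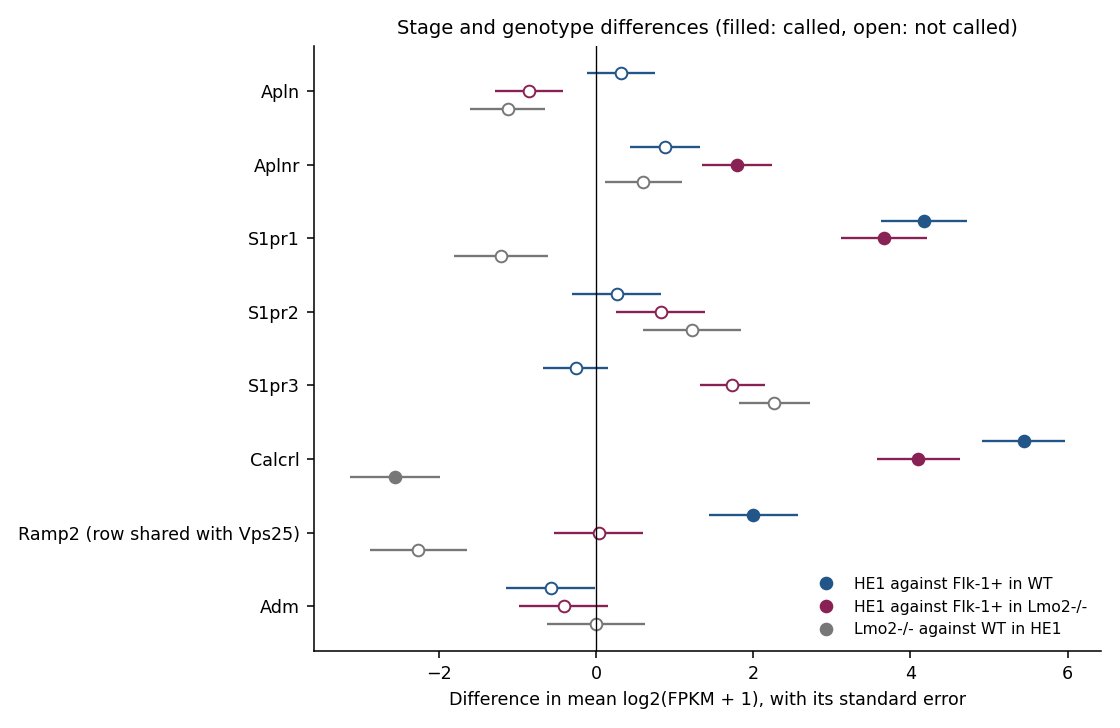
Differences (x axis, mean log2(FPKM + 1), bars give the standard error) of the 8 members tested (y axis) between HE1 and Flk-1+ cells in WT and in Lmo2-/-, and between the libraries labelled Lmo2-/- HE1 and WT HE1. Filled points were called. Calcrl and S1pr1 were called in both stage comparisons, and Calcrl alone was called between the HE1 groups.

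Of the 3 S1P receptors only S1pr1 was called in any comparison. S1pr1 (chr3:115710433-115715072, minus strand) was at 5.54, 2.003 and 1.28 FPKM in WT Flk-1+, 0.445, 2.68 and 0.937 in Lmo2-/- Flk-1+, and 0.812, 0.164 and 0.450 in Tal1-/- Flk-1+. It was at 66.6 and 59.6 FPKM in WT HE1 and at 30.8 and 23.0 in Lmo2-/- HE1, so that all HE1 libraries lay above all Flk-1+ libraries and the 2 HE1 groups did not overlap. These HE1 values rest on about 544, 562, 329 and 78 fragments. S1pr1 rose between the stages by 4.17 (SE 0.55) in WT (limma, adjusted p = 0.000410) and by 3.67 (SE 0.55) in Lmo2-/- (limma, adjusted p = 0.000640), and the 2 rises were not shown to differ (interaction -0.51, SE 0.77, limma, adjusted p = 0.829). The mean FPKM was 21.4 times higher in HE1 in WT and 19.9 times higher in Lmo2-/-. Both calls held under every alternative run, as did those of Calcrl. Between the HE1 groups S1pr1 was lower by 1.21 (SE 0.60) in Lmo2-/- and not called (limma, adjusted p = 0.271). In Tal1-/- Flk-1+ cells all 3 values lay below those of WT, with a difference of -1.29 (SE 0.49) that did not pass the adjustment (limma, adjusted p = 0.703; exact permutation p = 0.1, the smallest that 3 against 3 libraries can give).

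S1pr2 (chr9:20965952-20976793, minus strand) changed less. It was at 4.49, 1.09 and 2.196 FPKM in WT Flk-1+, 4.27, 5.01 and 3.56 in Lmo2-/- Flk-1+, 4.25, 5.07 and 2.23 in Tal1-/- Flk-1+, 5.33 and 1.498 in WT HE1, and 11.2 and 6.08 in Lmo2-/- HE1. In FPKM only the Lmo2-/- HE1 libraries stood above all the others, and S1pr2 was called in no comparison. This order depends on the scaling. Among the genes tested, S1pr2 stood at the 47.3 percentile in the shallow Lmo2-/- HE1 library, below WT HE1 replicate 0 at 49.6. The difference between the HE1 groups was 1.22 (SE 0.62, limma, adjusted p = 0.284).

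S1pr3 (chr13:51408618-51422797, plus strand) was at 1.48 FPKM or below in every library but those labelled Lmo2-/- HE1. It was at 0, 0.256 and 0.361 FPKM in WT Flk-1+, 0.496, 0.371 and 0.470 in Lmo2-/- Flk-1+, and 1.48, 0 and 0.258 in Tal1-/- Flk-1+. It was listed at 0 in both libraries labelled WT HE1, and in those labelled Lmo2-/- HE1 it was at 3.49 and 4.15 FPKM, values that rest on about 56 and 21 fragments and lie above every other library. The difference between the HE1 groups was 2.27 (SE 0.45, limma, adjusted p = 0.0145) and that between HE1 and Flk-1+ cells in Lmo2-/- was 1.73 (SE 0.41, limma, adjusted p = 0.00882), but neither was called because S1pr3 stayed under 10 FPKM. The first is set against libraries at 0 and so depends on the pseudocount, with 0.82 to 5.29 and adjusted p from 0.00622 to 0.263 over the alternatives that keep all libraries. The interaction of genotype and stage was 1.99 (SE 0.58) and was not called (limma, adjusted p = 0.171). No member was called for the interaction, where 0.348% of all genes were, and at an unadjusted p below 0.05 S1pr3 and the Ramp2 row passed, as did 12.1% of all genes. In Flk-1+ cells all 3 Lmo2-/- values of S1pr3 lay above those of WT, as for 3.99% of all genes, with a difference of 0.27 on the log2 scale (limma, adjusted p = 1). A long non-coding RNA, Gm32834, overlaps S1pr3 on the opposite strand. The library kit kept the strand, but the strand setting of the counting is not given in the sources used here, so that the reads of these genes may not have been told apart.

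Of the markers of other cells, those of fibroblasts differed between the HE1 groups. The 8 fibroblast markers summed to 194 and 778 FPKM in the libraries labelled Lmo2-/- HE1 against 34.7 and 41.7 in those labelled WT HE1, with Thy1 listed at 0 in all 4, and 3 of the 7 tested were called higher in Lmo2-/- HE1. The 8 smooth muscle markers summed to 351 and 886 FPKM against 192 and 247, with 0 of 7 called. The 8 cardiac markers summed to 2.24 and 15.4 FPKM against 9.72 and 11.8, and the 10 haematopoietic markers to 7.83 and 14.1 against 6.82 and 11.3, with Ptprc, Gata1 and Spi1 at 0 in all 4 libraries and none called from either list. The 5 primitive streak markers summed to 97.8 to 369 FPKM in Flk-1+ libraries and to 0.725 to 1.98 in HE1. The part of these markers in the levels of S1pr2, S1pr3, Aplnr or Calcrl was not tested. Between the HE1 groups, 3 members (Aplnr, S1pr2 and S1pr3) had both Lmo2-/- libraries above both WT libraries, as 25.9% of all genes did, and 4 (Apln, S1pr1, Calcrl and the Ramp2 row) had both below, as 13.8% did. These orders are in FPKM. By percentile among the genes tested, Aplnr and S1pr2 overlapped between the HE1 groups.

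Because FPKM is per length, the 3 S1P receptors can be added up, and the share of S1pr1 in their sum does not depend on the scaling of a library. S1pr1 made up 55.2%, 59.9% and 33.4% of the sum in WT Flk-1+, 8.54%, 33.2% and 18.9% in Lmo2-/- Flk-1+, and 12.4%, 3.13% and 15.3% in Tal1-/- Flk-1+. In HE1 it made up 92.6% and 97.5% in WT and 67.8% and 69.2% in Lmo2-/-. The share was thus higher in HE1 than in Flk-1+ cells of the same genotype, and lower in each mutant than in WT of the same stage, with no overlap of the libraries in any of these 5 comparisons. In Flk-1+ cells, however, the closest WT and Lmo2-/- libraries were at 33.4% and 33.2%. S1pr1 rests there on about 71, 42 and 19 fragments in WT, 6, 29 and 12 in Lmo2-/-, and 11, 2 and 7 in Tal1-/-. The mean was 49.5% ± 14.1 (SD, n = 3) in WT, 20.2% ± 12.4 (SD, n = 3) in Lmo2-/- and 10.3% ± 6.36 (SD, n = 3) in Tal1-/- Flk-1+ cells, and 95.1% ± 3.51 (SD, n = 2) in WT HE1 and 68.5% ± 1.01 (SD, n = 2) in Lmo2-/- HE1. Exact permutation tests, two-sided, gave p = 0.1 for either mutant against WT in Flk-1+ cells, 0.2 for either stage comparison and 0.333 for the HE1 groups, in each case the smallest p that the design allows, and p = 0.4 between the mutants. None of these can reach 0.05, and the 2 comparisons with WT Flk-1+ share those libraries. S1pr2 took most of the rest, with 44.8% ± 12.4 (SD, n = 3) in WT, 71.9% ± 9.88 (SD, n = 3) in Lmo2-/- and 79.2% ± 16.2 (SD, n = 3) in Tal1-/- Flk-1+ cells.

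**Figure D4:**
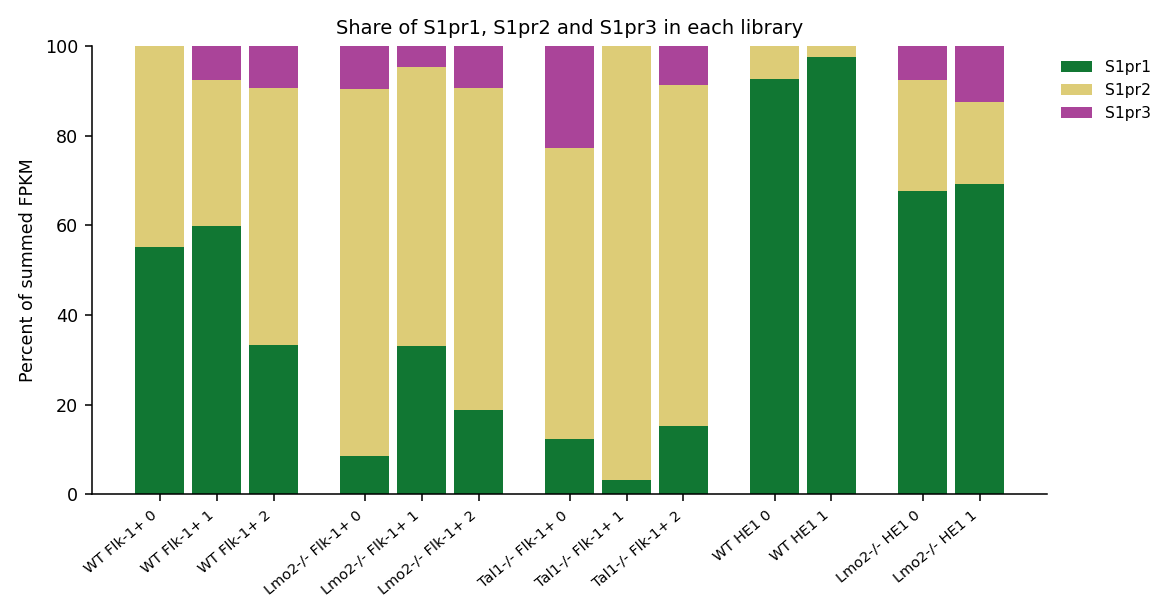
Share of S1pr1, S1pr2 and S1pr3 in their summed FPKM (y axis, percent) in each of the 13 libraries (bars, named by group and replicate number). S1pr1 takes over 90% in the WT HE1 libraries, 67.8% and 69.2% in the Lmo2-/- HE1 libraries and 59.9% or less in every Flk-1+ library.

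Aplnr had the highest FPKM of the 9 in most libraries. Aplnr (chr2:85136225-85139923, plus strand) was at 94.2, 28.7 and 36.2 FPKM in WT Flk-1+, 34.8, 44.6 and 32.4 in Lmo2-/- Flk-1+, and 35.2, 29.7 and 24.6 in Tal1-/- Flk-1+. It was at 79.3 and 92.3 FPKM in WT HE1 and at 101 and 169 in Lmo2-/- HE1. That gap depends on the scaling. The authors' pooled FPKM were 92.1 in WT HE1 and 94.4 in Lmo2-/- HE1. Percentiles among the genes tested overlapped, at 96.5 and 97.4 in WT HE1 and 97.2 and 97.0 in Lmo2-/- HE1. WT Flk-1+ replicate 0 lay above both WT HE1 libraries, while the other 8 Flk-1+ libraries lay below all HE1 libraries. Within a library Aplnr was the highest of the 9 in 2 of 3 libraries of each Flk-1+ group and in both Lmo2-/- HE1 libraries, while Calcrl or the Ramp2 row was the highest in WT HE1. Aplnr was called higher in HE1 in Lmo2-/-, by 1.79 (SE 0.45, limma, adjusted p = 0.0111), with a mean FPKM 3.61 times higher (2.21 times with the authors' pooled FPKM), and was not called in WT, with a difference of 0.87 (SE 0.45, limma, adjusted p = 0.258). The interaction was 0.92 (SE 0.63, limma, adjusted p = 0.574), so the stage differences were not shown to differ. The call in Lmo2-/- was lost with rescaling to a common median (0.79, limma, adjusted p = 0.173), with quantile normalization (0.73, with 0.231), with array weights (0.0761) and without the shallow library (1.42, with 0.101), over alternatives that ranged from 0.00222 to 0.231. Without WT Flk-1+ replicate 0 the difference in WT was called (1.38, limma, adjusted p = 0.0261, where the alternatives ranged up to 0.604).

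Transcripts of the 2 peptide ligands were scarce. Apln (chrX:48025146-48034853, minus strand) was at 0.980, 0.691 and 0.846 FPKM in WT Flk-1+, 1.22, 0.980 and 0.528 in Lmo2-/- Flk-1+, 0.214, 1.42 and 0.744 in Tal1-/- Flk-1+, and 0.593 and 2.25 in WT HE1, and at 0.0901 and 0 in Lmo2-/- HE1. These values rest on 0 to 22 fragments, with 1 and 0 in the Lmo2-/- HE1 libraries against 5 and 22 in WT HE1. Lmo2-/- HE1 was the lowest group, but the difference from WT HE1 of -1.12 (SE 0.47) was not called (limma, adjusted p = 0.2003). Adm (chr7:110626281-110639358, plus strand) was listed at 0 in all 4 HE1 libraries. In Flk-1+ libraries it was at 0.365, 0 and 1.42 FPKM in WT, 0.521, 0 and 0.548 in Lmo2-/-, and 2.06, 0 and 3.44 in Tal1-/-, values that rest on 0 to 23 fragments, and it was called in no comparison. An antisense gene, Gm28863, overlaps Adm. In HE1, then, the genes of the receptors stood at up to 193 FPKM while neither ligand passed 2.25 FPKM.

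The rest of the 3 pathways and the G proteins they use gave 37 further genes, all with a row and 27 tested. The list held 5 genes grouped under apelin, Ackr3 among them, 15 genes of S1P synthesis, breakdown and transport with the receptors S1pr4 and S1pr5, 9 genes of adrenomedullin and its relatives with their receptors and breakdown, and 8 G protein alpha subunits. From Flk-1+ to HE1, 5 were called higher and none lower in WT (18.5% of the 27, against 6.04% of all genes), and 4 were called higher and none lower in Lmo2-/- (14.8%, against 17.2% of all genes). No gene of the list was called in Flk-1+ cells, between the HE1 groups or for the interaction. Ackr3, Gpr182 and Plpp1, named after their values were seen, passed the adjusted p but stayed under 10 FPKM. Ackr3, a receptor related to those of chemokines, was at 3.91 to 9.92 FPKM in Flk-1+ libraries, at 0 and 0.488 in WT HE1 and at 5.27 and 6.18 in Lmo2-/- HE1. It differed by -2.45 (SE 0.43) between the stages in WT (limma, adjusted p = 0.0032) and by 2.46 (SE 0.48) between the HE1 groups (limma, adjusted p = 0.0127). Gpr182, a receptor of endothelium once linked to adrenomedullin, was at 0.357 FPKM or below in Flk-1+ libraries, at 3.96 and 7.78 in WT HE1 and at 0 and 0.639 in Lmo2-/- HE1. It differed by 2.58 (SE 0.38) between the stages in WT (limma, adjusted p = 0.000872) and by -2.37 (SE 0.41) between the HE1 groups (limma, adjusted p = 0.00761). Plpp1, a lipid phosphate phosphatase, differed by 2.04 (SE 0.57) between the stages in Lmo2-/- (limma, adjusted p = 0.0199). Of the apelin list 1 of 4 tested was called, Ece1, an endothelin-converting enzyme that can cleave peptides of this kind. It lay between 6.51 and 45.6 FPKM in Flk-1+ libraries, between 88.2 and 109 in WT HE1 and at 145 and 807 in Lmo2-/- HE1, and rose by 2.81 (SE 0.69, limma, adjusted p = 0.0204) and 3.41 (SE 0.69, limma, adjusted p = 0.00353). The median difference of this list, with Ackr3 included, was -1.16 in WT and -0.31 in Lmo2-/-, opposite in sign to Ece1. In the S1P list, Spns2, the transporter that exports S1P from endothelial cells, rose by 4.17 (SE 0.47, limma, adjusted p = 0.000154) in WT and by 2.995 (SE 0.47, limma, adjusted p = 0.000886) in Lmo2-/-, from 1.99 FPKM or less to between 15.8 and 25.9. Asah1, an acid ceramidase that frees the sphingosine from which S1P is made, was called in WT only, with 2.04 (SE 0.52, limma, adjusted p = 0.0272) against 1.22 (SE 0.52, limma, adjusted p = 0.104) in Lmo2-/-, and an interaction that was not called (limma, adjusted p = 0.679). The median of the S1P list was 0.70 in WT and 0.60 in Lmo2-/-. None of the 4 tested of the adrenomedullin list was called, and Ramp1, Calca and Calcb were listed at 0 in all 13 libraries. Of the 8 G protein subunits, Gna12 and Gna13 were called higher in HE1 of both genotypes, Gna12 by 2.49 (SE 0.45, limma, adjusted p = 0.00389) and 2.40 (SE 0.45, limma, adjusted p = 0.00248), and Gna13 by 1.64 (SE 0.34, limma, adjusted p = 0.00853) and 1.85 (SE 0.34, limma, adjusted p = 0.00227). The medians of that list were 0.64 and 1.02.

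The genes whose profile over the 13 libraries was most like that of each member were found by the root mean square (RMS) difference between centred log2(FPKM + 1) values, among 6781 genes. Calcrl had an RMS of 2.49 about its own mean, and nearest to it were Ptprb (a receptor tyrosine phosphatase; difference 0.463), Ptrf (a caveolar coat protein; 0.618) and Adgrl4 (an adhesion G protein-coupled receptor; 0.644). Mean FPKM of Ptprb was 102 in WT HE1 and 33.5 in Lmo2-/- HE1, that of Ptrf 81.8 and 21.0, and that of Adgrl4 68.3 and 17.0, and each was at 2.36 or below in every Flk-1+ group. Nearest to S1pr1, with an RMS of 2.08, were F2r (a thrombin receptor; 0.428), Itga1 (an integrin subunit; 0.432) and Tagln (an actin-binding protein of smooth muscle; 0.442). The mean of F2r was 460 FPKM in WT HE1 and 440 in Lmo2-/- HE1. Between the members, S1pr1 and Calcrl differed by 0.794 and S1pr2 and S1pr3 by 0.669, while S1pr1 differed from S1pr2 by 2.02 and from S1pr3 by 2.05. S1pr2 and S1pr3 were nevertheless not close, since 0.669 exceeds the RMS of S1pr2 about its own mean (0.654). Aplnr and S1pr2 differed by 0.793. For Aplnr, with an RMS of 0.842, the nearest were Slc38a1, Hdlbp and Ncapd3 (0.216 to 0.246), for S1pr3, with 0.768, Fzd2, Myo1e and Frs2 (0.329 to 0.349), and for S1pr2, with 0.654, Cdca4, Ankrd49 and Fam168a (0.312 to 0.362). The nearest to the Ramp2 row, with 0.992, were Cmas, Slc35f5 and Fam43a (0.394 to 0.405). Apln and Adm rest on few fragments, and their nearest genes (Rps3a3, Gm7964 and Pias2, and Gm13225, Strbp and Gm7488) were not close. These differed from them by 0.263 to 0.317 and by 0.468 to 0.491, against an RMS of Apln and Adm of 0.452 and 0.698. All these likenesses are descriptions over libraries that share their culture and their depth. The genes were picked on the same libraries, so a difference they share with a member follows from the choice.

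**Figure D5:**
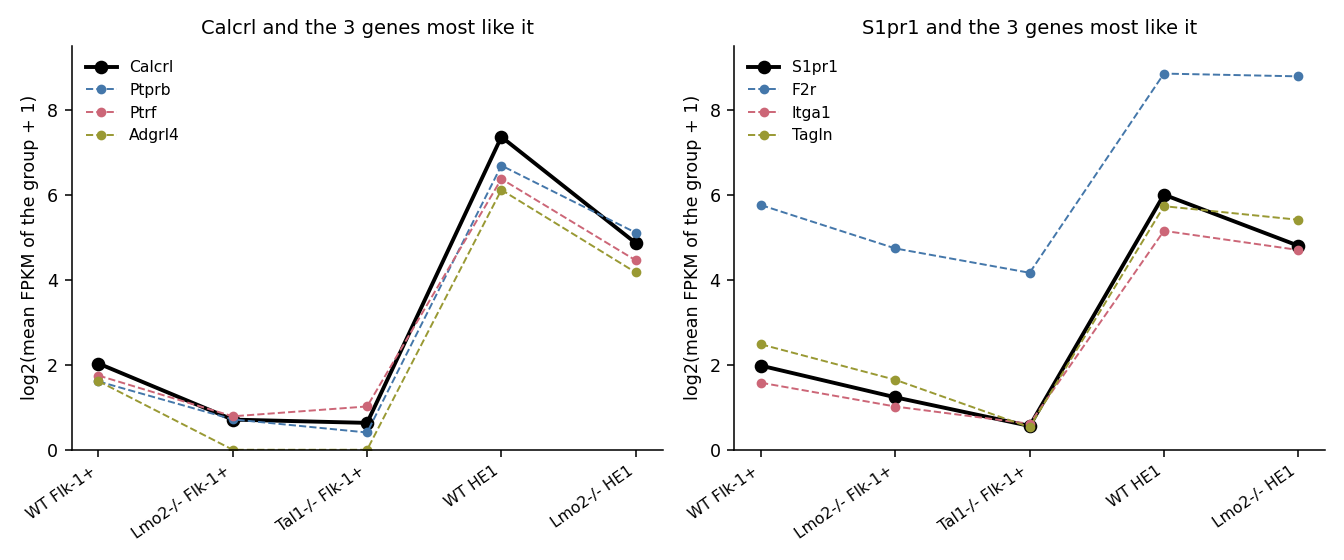
Group means, as log2(mean FPKM + 1) (y axis), of Calcrl (left) and S1pr1 (right) and of the 3 genes most like each in the 5 groups (x axis). Calcrl, Ptprb, Ptrf and Adgrl4 are all lower in Lmo2-/- HE1 than in WT HE1, whereas F2r is at 460 and 440 FPKM in the 2 groups.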

How the data were processed

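RNA was measured by polyA RNAseq in 13 libraries. Per the methods of the study and the labels, reads were aligned to mm10 with TopHat 2.0.9, transcripts were assembled with Cufflinks 2.0.0 (quartile normalisation, effective length correction) and merged, groups were compared with Cuffdiff 2.0.1, and Cuffnorm gave the values per library. The authors deposited normalised FPKM per gene and library, and pooled FPKM per condition, which served only as an alternative for levels, shares and ratios. A deposited table of their own comparisons holds fold changes and p-values and was not used, and 0 columns of per-sample values were left out. Low FPKM values of Apln, S1pr1, S1pr3 and Adm are whole multiples of 1 fragment within 0.1 of a fragment, from which fragments were estimated. For the other members no depth was derived. The series' ChIPseq and DHSseq samples were not analysed here.

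Groups were taken from the labels. The 13802 of 45250 genes that reached 1 FPKM in 2 or more libraries, on loci longer than 200 bp, were fitted with limma 3.58.1 (R 4.3.3, with a trend) on log2(FPKM + 1) over all 13 libraries, with 6 comparisons of groups and the interaction of genotype and stage. P-values were adjusted over all genes by Benjamini-Hochberg. A call also needed a mean above 10 FPKM in a group compared. Exact permutation tests (two-sided, scipy 1.17.1) could not go below p = 0.1 with 3 against 3 libraries, 0.2 with 3 against 2 and 0.333 with 2 against 2. Scripts were tested on simulated data first.

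All 9 members are described. Of the other pathway genes, those called in any comparison are named, and the 3 genes with the smallest RMS difference are named for each member. The members and lists were chosen with earlier results of these data known. Alternatives were pseudocounts of 0.1 and 5, other filters on low values, quantile normalization, rescaling to a common median, a separate fit, no trend, array weights, a replicate block, no FPKM criterion and each library left out. Python 3.11.15, numpy 2.4.6, pandas 2.3.3 and matplotlib 3.10.9 were used. Some genes of the lists are not reported here by name.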

Additional observations from a re-analysis of the deposited data

How the results depend on the processing

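Between the HE1 groups, where 1 member was called, none was called with a pseudocount of 0.1 (0), a separate fit (0) or array weights (0), and 2 were with a pseudocount of 5 (adding the Ramp2 row) or without the FPKM criterion (2, adding S1pr3). Leaving out each library gave 0 to 2. For the interaction, with 0 members called, leaving out each library gave 0 to 1, the 1 being the Ramp2 row without Lmo2-/- HE1 replicate 0. The S1pr1 share in Lmo2-/- HE1, 68.5%, was 62.6% from the authors' pooled FPKM. Of 56 differences of members, none of the 16 with an unadjusted p below 0.05 changed sign, and 20 of the other 40 did under at least 1 alternative. Over all genes, the calls between the HE1 groups numbered 415, with 0 to 626 over the settings and 99 to 2182 over the libraries left out. Those between the stages numbered 964 (629 to 1682, and 336 to 1234) in WT and 2707 (976 to 3524, and 1657 to 3821) in Lmo2-/-, and those for the interaction 48 (5 to 85, and 8 to 1170). In Flk-1+ cells they numbered 0, 0 and 2, with at most 15. Quantile normalization gave 54.9% higher calls in the Lmo2-/- stage comparison, 64.1% in the WT one and 58.0% between the HE1 groups, and rescaling gave 55.6% instead of 75% for the interaction. Not every pair of same-numbered libraries deviated together in Flk-1+ cells (correlations from -0.184 to 0.169). With so few libraries this cannot decide whether they share more than a number. With the replicate block, 2189, 704, 313 and 14 genes were called between the stages in Lmo2-/- and in WT, between the HE1 groups and for the interaction. The Ramp2 row lost its call in WT under the block (2.04; limma, adjusted p = 0.0781), which left 2 members, and no other member changed its call. A fit without an HE1 library assumes that the lone library left varies like the other groups. A planned share of Ramp2 in Ramp2 and Ramp3 was not run because Ramp2 shares its row with Vps25. Apln, Adm, S1pr1 in the mutant Flk-1+ libraries and, outside Lmo2-/- HE1, S1pr3 rest on at most 30 fragments a library.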
